A study of Danio rerio with 6 samples.

Results

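The genes examined here mark the endothelial lineage, the cells that line blood and lymph vessels. They were chosen by name: 10 symbols were looked up in the deposited table of genes, and 8 of its 13466 entries matched. *etv2*, *fli1a*, *kdr*, *kdrl*, *flt1*, *flt4*, *tek* and *egfl7* were listed, all 8 passed the filter on low counts, and *tie1* and *she* were not analysed here. RNA-seq was carried out on whole zebrafish embryos at 18hpf from which the chorion and yolk had been removed. The libraries were 3 from homozygous *hoxb1b*-/- mutants, which carry the um197 allele, and 3 from wildtype control embryos, all from pools of embryos raised in egg water without a treatment. Whether each library had a pool of its own is not given in the sources used here, so p-values measure only the spread between these libraries, which may be technical. *hoxb1b* encodes a homeodomain transcription factor of the early hindbrain, so the comparison asks how the endothelial genes stood in embryos homozygous for the mutation.

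In the zebrafish, endothelial precursors called angioblasts arise in the lateral plate mesoderm, move to the midline and assemble into the first artery and vein. The ETS-family transcription factor Etv2 acts early in the endothelial programme, and Fli1a, of the same family, is kept on in vessels as they form. The precursors then make receptor tyrosine kinases that read VEGF (Kdr, Kdrl, Flt1 and Flt4) and angiopoietins (Tek, also called Tie2), together with secreted proteins such as Egfl7. In the RefSeq gene table *etv2* stands as *etsrp* and *fli1a* as *fli1*. RefSeq also gives *kdr* as an older name of *kdrl*, but the deposited table holds *kdr* and *kdrl* as separate entries with different counts.

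Total counts lay between 19139322 and 29146812 per library, and levels are given as CPM, counts per 1e+06 reads of the library size as normalized by edgeR's TMM method. Levels of different genes are not compared, since no transcript lengths were used, and sums over genes are sums of reads. Transcripts of *hoxb1b* itself stood at 84.4 ± 0.787 CPM in mutant and 69.1 ± 2.37 CPM in wildtype libraries (SD, n = 3 each), so its level does not tell the genotypes apart by a loss. Of the 12471 genes tested with edgeR's quasi-likelihood test, 66.2% had a Benjamini-Hochberg adjusted p under 0.05, the criterion for a call here. Calls toward higher expression in the mutants made up 32.6% of the tested genes and calls toward lower expression 33.6%. A call together with a change above 2-fold was made for 8.36%.

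The endothelial genes did not move as one block in the mutants. *etv2* and *kdr* rose, *kdrl*, *flt1*, *flt4* and *tek* fell, and *fli1a* and *egfl7* did not pass the test. The 6 calls among 8 genes, 2 higher and 4 lower, stand beside the background of 66.2% of all tested genes. The changes were moderate, with log2 fold changes of mutant over wildtype from -0.70 to 0.58, and 0 of the 8 genes changed by more than 2-fold. The median size of the change, without its sign, was 0.43 on the log2 scale for these genes and 0.24 for all tested genes. In all of the called genes the 3 mutant libraries lay on one side of the 3 wildtype libraries, as they did for 68.2% of tested genes. Transcripts were measured in whole embryos, so a change in the number of endothelial cells and in RNA per endothelial cell cannot be told apart. The clutch of origin is not given in the sources used here. A difference between the genotypes in clutch, exact stage or handling could not be separated from the mutation.

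**Figure D1:**
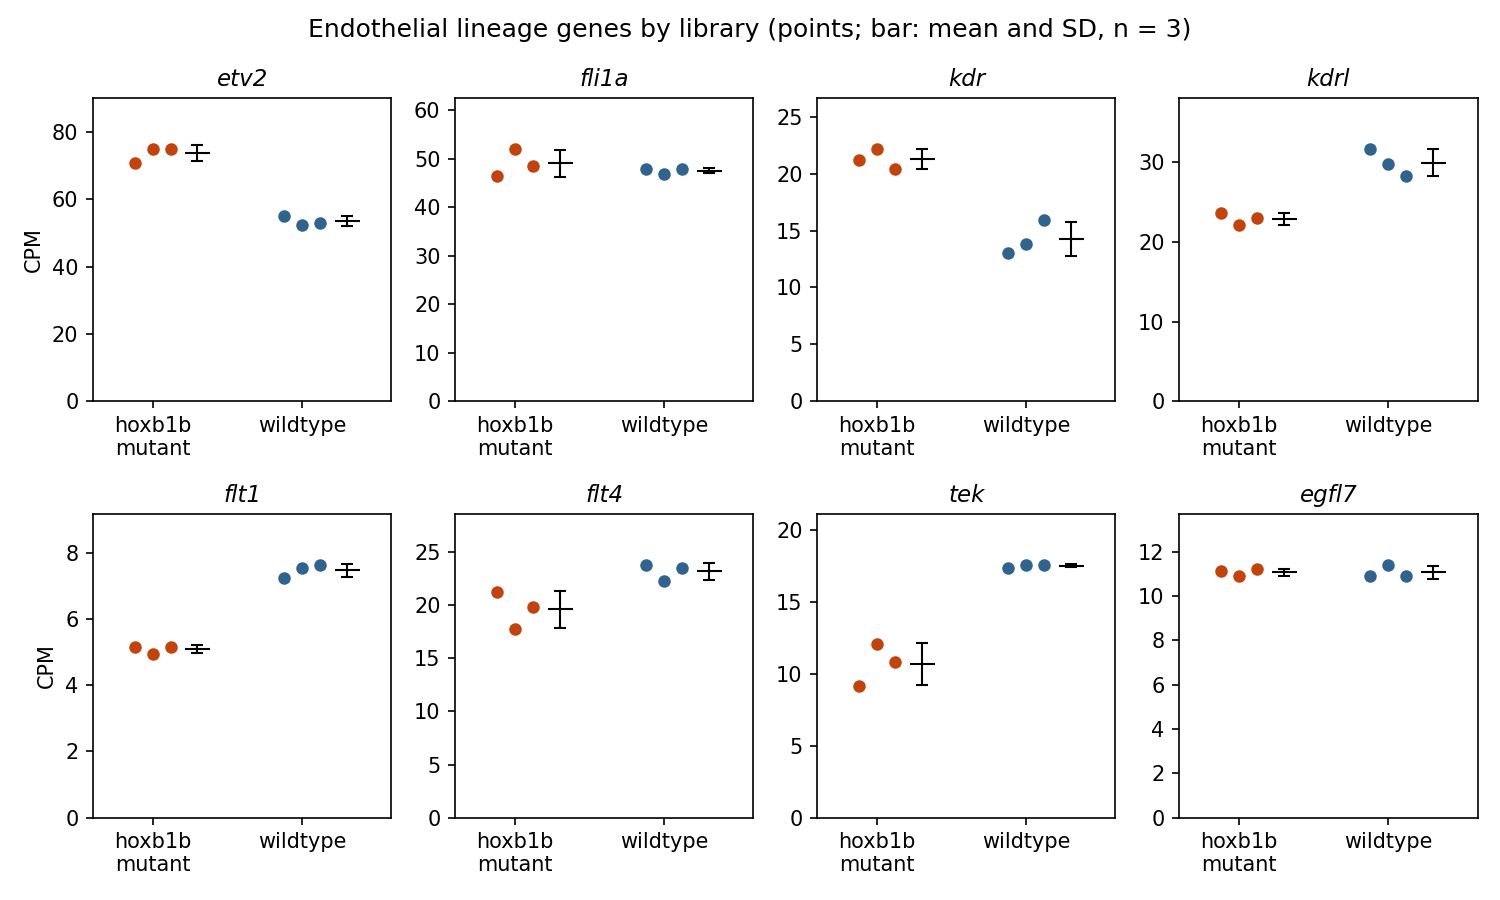
CPM (y axis, from 0) of the 8 endothelial lineage genes in each library, with *hoxb1b* mutant libraries to the left of wildtype libraries; points are libraries and the bar beside them is the mean with its SD over 3 libraries. The mutant points lie above the wildtype points for *etv2* and *kdr*, and below them for *kdrl*, *flt1*, *flt4* and *tek*. For *fli1a* they lie on both sides of the wildtype points, and for *egfl7* the genotypes overlap.

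Among the transcription factors, *etv2* had 70.9, 75.0 and 75.1 CPM in mutant libraries, against 55.2, 52.5 and 52.9 CPM in wildtype libraries. The lowest mutant library was thus well above the highest wildtype library. The mean was 73.7 ± 2.43 CPM in mutants and 53.5 ± 1.44 CPM in wildtype (SD, n = 3 each), a rise of 37.8%. The log2 fold change was 0.46 (standard error, SE, 0.04, edgeR adjusted p = 2.79e-12), and 25.1% of tested genes had a larger change in either direction. *etv2* encodes an early factor of the endothelial programme, and its transcripts are known to be most abundant in angioblasts and to decline once vessels have formed.

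*fli1a*, which is also expressed outside the vessels in cells such as cranial neural crest, had 46.5, 52.1 and 48.6 CPM in mutant libraries and 47.8, 46.9 and 47.9 CPM in wildtype libraries. The genotypes overlapped, and mutant replicate 2 stood above the other libraries. The log2 fold change of *fli1a* was 0.05 (SE 0.04, edgeR adjusted p = 0.313), and it ranged from 0.01 to 0.08 when single libraries were removed. With libraries scaled by total count alone, *fli1a* stood at 0.09 and passed the test (adjusted p = 0.0471 from edgeR; the range over this and the other settings of scaling, filter, tool and libraries was 0.0471 to 0.889). Within each library the ratio of *etv2* to *fli1a* counts, which does not depend on scaling, was 1.52, 1.44 and 1.55 in mutants and 1.15, 1.12 and 1.1 in wildtype. Its mean was 1.5 ± 0.0569 in mutants and 1.12 ± 0.0252 in wildtype (SD, n = 3 each). The counts of *fli1a* were fractional in 4 libraries and those of *etv2* in 2, so part of their reads was assigned by estimation.

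The VEGF receptor genes moved in opposite directions. *kdr* and *kdrl* are the zebrafish counterparts of the main signalling receptor for VEGF-A in vessels, and *kdrl* is the usual marker of embryonic endothelium. *kdr* had 21.2, 22.2 and 20.4 CPM in mutant libraries, against 13.0, 13.8 and 15.9 CPM in wildtype libraries. It was higher in each mutant library than in any wildtype library, with a log2 fold change of 0.58 (SE 0.07, edgeR adjusted p = 9.85e-09), a rise of 50.0%. Wildtype replicate 3 was the wildtype library nearest to the mutants, and the log2 fold change of *kdr* lay between 0.52 and 0.66 when single libraries were removed.

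*kdrl* had 23.6, 22.1 and 23.0 CPM in mutant libraries, against 31.7, 29.8 and 28.3 CPM in wildtype libraries. All mutant libraries were lower than all wildtype libraries, with a log2 fold change of -0.39 (SE 0.05, edgeR adjusted p = 1.39e-07). The count ratio of *kdr* to *kdrl* within a library was 0.898, 1.01 and 0.887 in mutants and 0.409, 0.462 and 0.562 in wildtype. The ratio averaged 0.932 ± 0.0681 in mutants and 0.478 ± 0.0777 in wildtype (SD, n = 3 each), so the balance of reads between these receptor genes differed by more than the spread between libraries. The ratios were chosen after the values of the genes were seen and were not tested, and since they are not corrected for transcript length they do not give which receptor was more abundant. Counts of *kdr* and *kdrl* were whole numbers in every library.

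**Figure D2:**
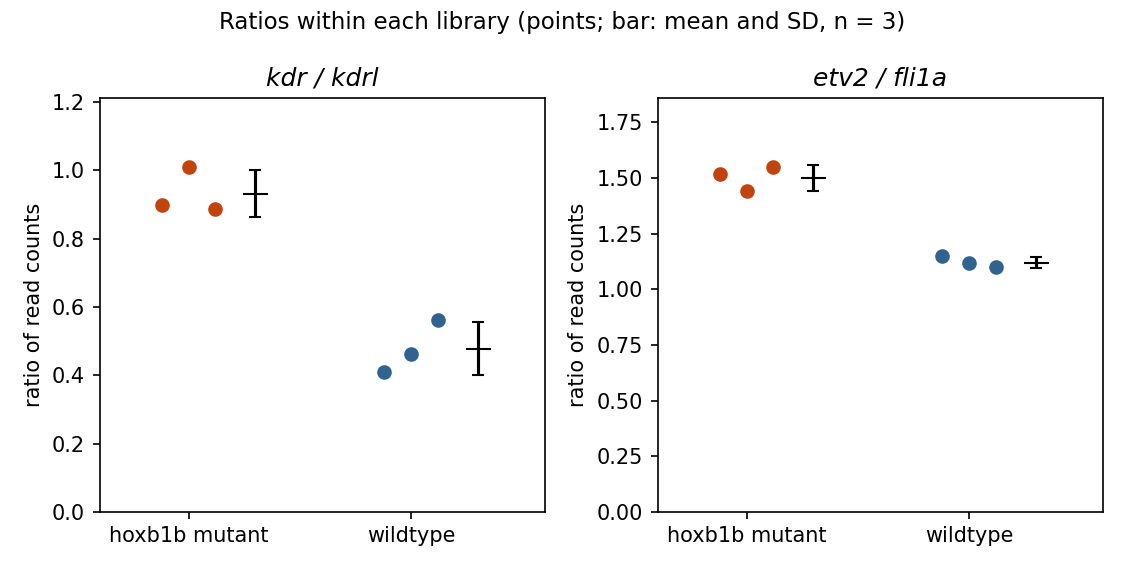
Ratios of read counts within each library (y axes, no unit, from 0) for *kdr* over *kdrl* and *etv2* over *fli1a*, with mutant libraries left of wildtype libraries; points are libraries and bars the mean with its SD over 3 libraries. Both ratios are higher in every mutant library than in any wildtype library, at 0.932 against 0.478 and at 1.5 against 1.12 on average.

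*flt1* encodes the VEGF receptor best known for binding VEGF-A without signalling strongly, in part as a soluble form that holds the ligand back. It had 5.15, 4.95 and 5.17 CPM in mutant libraries, against 7.25, 7.54 and 7.64 CPM in wildtype libraries. This was the lowest count among the receptor genes, at 100 to 153 reads per mutant library and 149 to 171 per wildtype library. The genotypes did not overlap, and the log2 fold change was -0.55 (SE 0.09, edgeR adjusted p = 1.03e-05). The SD of *flt1* over the 3 libraries was 2.32% of the mean in mutants and 2.67% in wildtype. Both are less than the 9.14% and 7.84% that counting alone gives per library on average. The entry does not separate the soluble from the membrane-bound form.

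*flt4* encodes the receptor for VEGF-C, used by veins, sprouting vessels and later lymphatics. It had 21.2, 17.8 and 19.8 CPM in mutant libraries, against 23.8, 22.3 and 23.5 CPM in wildtype libraries. The mutant libraries were all lower, but mutant replicate 1 came close to wildtype replicate 2. The log2 fold change was -0.25 (SE 0.06, edgeR adjusted p = 0.000669), the smallest of the called changes, and 48.3% of tested genes changed more. It lay between -0.29 and -0.18 when single libraries were removed.

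Pooled over *kdr*, *kdrl*, *flt1* and *flt4*, the reads of the receptor genes added up to 67.1 to 71.2 CPM in mutant libraries and 73.4 to 75.8 CPM in wildtype libraries. Totals and shares are of reads and are not corrected for transcript length. The totals did not overlap and were slightly lower in the mutants, and the share of each receptor in them also differed. *kdr* supplied 29.8%, 33.1% and 29.8% of the reads of these receptors in mutant libraries and 17.1%, 18.8% and 21.1% in wildtype libraries. *kdrl* supplied 33.2% ± 0.351 in mutants and 40.0% ± 2.21 in wildtype (SD, n = 3 each).

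*tek*, the receptor for angiopoietins that steadies the vessel wall, had the largest change of the 8 genes. It had 9.17, 12.1 and 10.8 CPM in mutant libraries, against 17.4, 17.6 and 17.6 CPM in wildtype libraries. Its log2 fold change was -0.70 (SE 0.07, edgeR adjusted p = 2.47e-09), a decrease to 0.615 of the wildtype level, and 14.8% of tested genes changed more. The mutant libraries were spread more widely than the wildtype ones, with an SD of 13.9% of the mean in mutants and 0.668% in wildtype. Counting alone gives 6.35% and 5.12% per library on average. The log2 fold change lay between -0.79 and -0.62 when single libraries were removed, so no single library carried the decrease.

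*egfl7*, which encodes a secreted protein of the endothelial matrix, had 11.1, 10.9 and 11.2 CPM in mutant libraries and 10.9, 11.4 and 10.9 CPM in wildtype libraries. The genotypes overlapped, and the mean was 11.1 CPM in each. The standard error of its log2 fold change was 0.07 (adjusted p = 0.992 from edgeR), and when single libraries were removed the log2 fold change lay between -0.01 and 0.03. A difference of the size seen in *flt1* or *kdr* would therefore have stood out from the spread between these libraries.

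**Figure D3:**
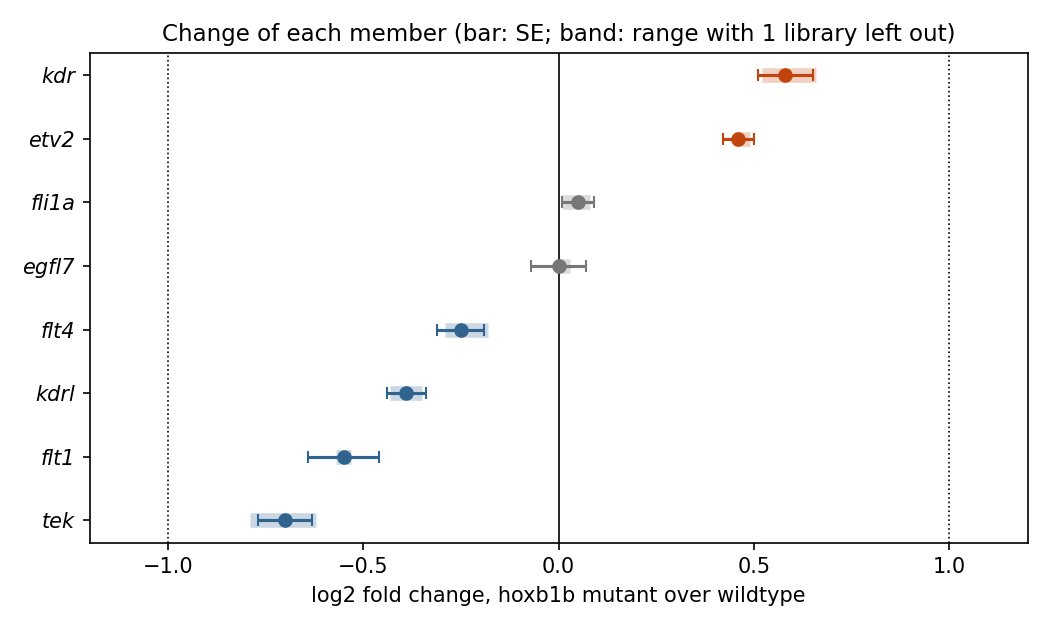
Log2 fold change of mutant over wildtype (x axis) for each of the 8 genes; points are the estimate, bars its standard error, pale bands the range over fits with 1 library removed, and dotted lines mark a 2-fold change. The changes run from -0.70 for *tek* to 0.58 for *kdr*, and none reaches a dotted line.

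Together the 8 genes held 209, 217 and 214 CPM in mutant libraries and 207, 202 and 205 CPM in wildtype libraries. This sum hides the opposite directions, as without *etv2* it was 138, 142 and 139 CPM in mutants and 152, 149 and 152 CPM in wildtype. Leaving out a gene that rose lowers the mutant sum more by construction, so these values illustrate the sum and are no test. Averaged over the 8 genes, the profile over the 6 libraries was almost flat, also because the genes moved in opposite directions. The 5 genes whose profiles lay nearest to that average were *eef2b*, *rpl4*, *rps3*, *ubc* and *npepps*, with root mean square distances of 0.006 to 0.011 on the log2 scale (Pearson r of 0.98 to 0.99 over 6 libraries, given as a description). They include general translation genes and stand near an average of genes that changed in opposite directions.

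All calls are measured against a spread between libraries that was small. The estimated coefficient of variation beyond counting noise was 1.85%, a single value shared by all tested genes. Spread differed between the members. With counting noise included, the SD in mutants was 13.9% of the mean for *tek* and 2.32% for *flt1*. When a coefficient of variation of 10% between embryo pools was assumed instead, *flt4* was no longer called (adjusted p = 0.137 from edgeR's likelihood ratio test). With an assumed 20%, only *tek* of the 8 genes was called (adjusted p = 0.0331 from the same test), and the adjusted p of the others ranged from 0.105 for *kdr* to 0.999 for *egfl7*.

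Further genes of the vascular programme were read from lists chosen with earlier results of these data known. Of 20 transcription factors expressed in angioblasts or vessels, 17 were tested, of which 6 rose, 3 fell and 8 did not pass the test. The 9 calls among 17 stand beside the background of 66.2% of all tested genes and are not read as a result about the list. Their median log2 fold change was -0.02, and that of all tested genes was 0.00. *lmo2* encodes a partner of Tal1 in the shared precursors of blood and endothelium. It had 47.0, 47.6 and 49.8 CPM in mutant libraries, against 30.0, 31.9 and 35.3 CPM in wildtype libraries. The groups did not overlap, and the log2 fold change of *lmo2* was 0.58 (SE 0.05, edgeR adjusted p = 9.07e-12). *hey2*, a Notch effector that favours the arterial fate, rose by 0.47 on the log2 scale, and *gata2a* by 0.32. Notch ligand and receptor genes of the surface list, singled out after their values were seen, did not rise with *hey2*. Log2 fold changes were -0.11 for *dll4*, which was not called, and -0.14 for *notch1b* and -0.19 for *notch3*, which were called. The largest decreases among the transcription factors were -0.69 for *prox1a*, the lymphatic regulator that is also active in muscle, lens and liver, -0.41 for *mef2ca* and -0.34 for *klf2b*. Levels in whole embryos do not separate vessels from other tissues for any of these genes. The ETS genes *fli1b*, *erg*, *ets1* and *elk3* did not pass the test, with log2 fold changes from -0.10 to 0.03. They were singled out after their values were seen.

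Among 35 surface, junction and signalling genes of endothelium, 31 were tested, of which 9 rose, 17 fell and 5 did not pass the test, with a median log2 fold change of -0.14. Calls toward lower expression are the larger share here, at 17 of 31 genes against 33.6% of all tested genes. The list has the only genes of the vascular lists that changed by more than 2-fold, *pecam1* and *aqp8a.1*. *pecam1*, which encodes a cell adhesion protein of endothelial contacts, had 1.65, 1.90 and 2.23 CPM in mutant libraries, against 8.28, 8.51 and 8.46 CPM in wildtype libraries. Every mutant library was well below every wildtype library, with a log2 fold change of -2.10 (SE 0.12, edgeR adjusted p = 3.29e-15). *aqp8a.1*, a water channel of vessels, had 6.28, 5.77 and 6.15 CPM in mutant libraries, against 14.4, 14.6 and 14.5 CPM in wildtype libraries. Its log2 fold change was -1.26 (SE 0.08, edgeR adjusted p = 1.95e-14).

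The tight junction gene *cldn5b* fell just short of 2-fold, with a log2 fold change of -0.99 (SE 0.08, edgeR adjusted p = 5.12e-12). It ranged from -1.06 to -0.92 when single libraries were removed, and passed 2-fold without wildtype replicate 1 (-1.06), mutant replicate 1 (-1.03) or mutant replicate 3 (-1.02). *cdh5*, singled out after its value was seen because VE-cadherin defines endothelial junctions, had 17.3, 17.6 and 16.5 CPM in mutant libraries, against 26.6, 26.1 and 25.3 CPM in wildtype libraries. It fell by 0.61 on the log2 scale (SE 0.05, edgeR adjusted p = 6.92e-11). The largest rises in the list were small, at 0.35 for the neuropilin gene *nrp2b*, 0.33 for the chemokine receptor gene *cxcr4a* and 0.28 for *ramp2*, a partner of the adrenomedullin receptor. Many of these genes, among them *nrp2b* and *cxcr4a*, are also expressed in other tissues of the embryo.

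Of 17 genes for vascular ligands and proteins that act with them, 10 were tested. Of these 2 rose and 4 fell, a share near the 66.2% called among all tested genes. The list holds apelin and semaphorin genes beside those of VEGF and angiopoietins. The 2 rises were *apela* and *sema3ab*, and the falls included *apln* and *sema3aa*. *angpt1*, which encodes the ligand that activates Tek, had 6.69, 5.60 and 6.62 CPM in mutant libraries, against 8.71, 8.73 and 8.36 CPM in wildtype libraries. It was lower in all mutant libraries, as *tek* was, with a log2 fold change of -0.45 (SE 0.09, edgeR adjusted p = 9.93e-05). The VEGF ligand genes were singled out after their values were seen. *vegfaa* had a log2 fold change of 0.04 (SE 0.13, edgeR adjusted p = 0.79), *vegfc* of -0.19 (SE 0.14, edgeR adjusted p = 0.233), and *vegfab* fell by 0.22 (SE 0.09, edgeR adjusted p = 0.0268) with overlapping libraries. *vegfaa* and *vegfc* averaged 3.26 and 3.49 CPM in mutants and 3.17 and 4.03 CPM in wildtype, so a change of the size seen in *flt4* was not detectable for them at this depth.

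Genes of other tissues that share the lateral plate or were present in the same embryos also moved between the genotypes. Their counts are to be read against the 32.6% of all tested genes that rose and the 33.6% that fell. A call with a change above 2-fold was made for 8.36% of all tested genes. Of 10 tested erythroid markers 1 rose and 8 fell, with 6 past 2-fold and a median log2 fold change of -1.47. Their summed level was 557 to 575 CPM in mutant libraries and 1580 to 1610 CPM in wildtype libraries. It is made up largely of the globin genes *hbae3*, *hbbe1.1* and *hbbe3*. These averaged 137, 124 and 131 CPM in mutants and 451, 504 and 361 CPM in wildtype. *klf17* rose by 0.58 on the log2 scale, and *gata1a* did not pass the test (0.01). *hbae3*, *hbbe3* and *gata1a* were singled out after their values were seen. Primitive myeloid markers, which include genes of cells that also need Etv2, had 2 rises and 7 falls among 10 tested, with 6 past 2-fold and a median log2 fold change of -1.33. Their sum was 59.0 to 61.0 CPM in mutants and 68.2 to 71.3 CPM in wildtype. The largest part of it was *cebpa*, which rose and averaged 38.9 CPM in mutants and 29.2 CPM in wildtype. The sum therefore hides part of the falls. The largest falls were -2.38 for *lyz*, -2.13 for *csf1ra* and -1.59 for *mpeg1.1* on the log2 scale. *mpeg1.1* had only 7 to 10 reads per mutant library and 17 to 26 per wildtype library. *csf1ra* had 18 to 28 reads per mutant library and 76 to 103 per wildtype library. The 2 rises were 0.51 for *spi1b* (edgeR adjusted p = 0.00487) and 0.41 for *cebpa*. Pronephros and lateral plate markers had 5 rises and 1 fall among 8 tested, with a sum of 228 to 231 CPM in mutants and 210 to 214 CPM in wildtype, and the 6 calls among 8 are near the background of 66.2%. Skeletal muscle markers had 3 rises and 7 falls among 10 tested, with 6 past 2-fold and a median log2 fold change of -1.3. Their sum was 5310 to 5390 CPM in mutants and 12700 to 12900 CPM in wildtype. This sum is made up largely of contractile genes such as *actc1b*, singled out after its values were seen. *actc1b* averaged 2020 CPM in mutants and 5600 CPM in wildtype. The 3 rises were the transcription factor genes *myf5*, *myod1* and *myog*, at 0.97, 0.42 and 0.16 on the log2 scale. Cytosolic heat shock genes had 3 rises and 8 falls among 11 tested, with 6 past 2-fold and a median log2 fold change of -1.64. Their sum, 6730 to 6830 CPM in mutants and 8740 to 8840 CPM in wildtype, is made up largely of the constitutive chaperone gene *hspa8*, singled out after its values were seen, at 5500 CPM in mutants and 6220 CPM in wildtype on average. The stress-inducible *hsp70.1* averaged 24.8 CPM in mutants and 319 CPM in wildtype, *hsp90aa1.2* averaged 48.8 CPM in mutants and 524 CPM in wildtype, and *hsp70l* averaged 7.66 CPM in mutants and 73.6 CPM in wildtype. Their log2 fold changes were -3.68 for *hsp70.1*, -3.43 for *hsp90aa1.2* and -3.25 for *hsp70l*, and their counts were fractional, so the division of reads between close paralogs is uncertain. The 3 rises were 0.53 for *hsf2*, 0.14 for *hsf1* and 0.14 for *hspb1*. Of these, *hsf2* and *hsf1* encode heat shock transcription factors and not chaperones. No listed marker of these tissues was at 0 in all libraries, and the part of these differences in the endothelial results was not tested.

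**Figure D4:**
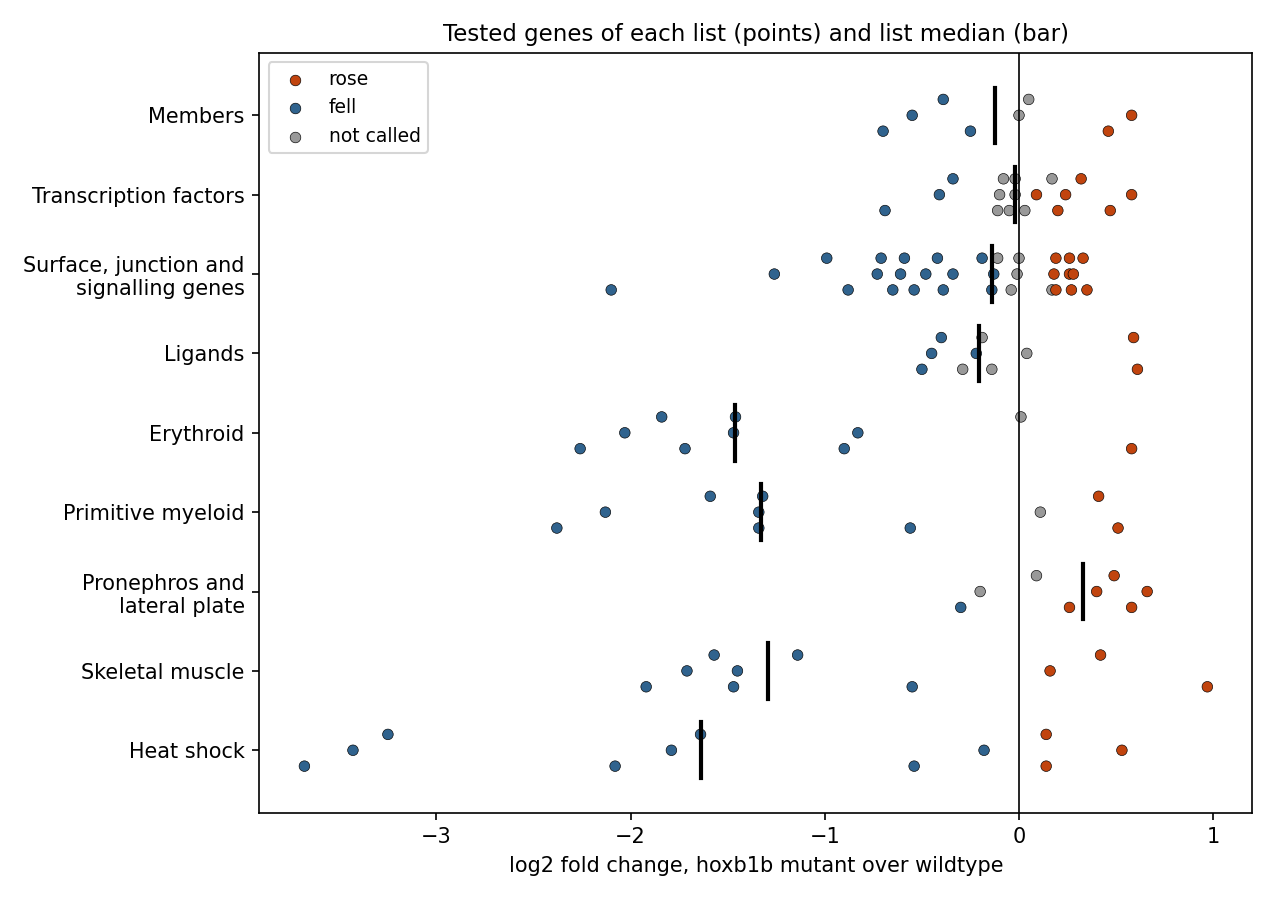
Log2 fold change of mutant over wildtype (x axis) for the tested genes of each list (rows); points are genes, coloured by whether they rose, fell or were not called at an adjusted p of 0.05, and black bars are list medians. The 8 endothelial lineage genes and the other vascular lists straddle 0, with medians from -0.21 to -0.02, while the medians of the erythroid, myeloid, muscle and heat shock lists lie between -1.64 and -1.30.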

How the data were processed

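RNA was polyA-selected and strand was kept. For 13466 genes the authors deposited the estimated count of reads in each library, without normalization. They also deposited their own adjusted p-value, log2 fold change and fold change (a ratio), which were not used. The submitters' processing notes name FastQC, RSEM 1.2.28 and DESeq2, and the builds GRCz10 and danRer7, without their roles. The aligner is not given in the sources used here.

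The counts were rounded, and edgeR 4.0.16 (R 4.3.3) was run with filterByExpr, TMM and its quasi-likelihood functions glmQLFit and glmQLFTest. Genotype was the single term of the model, with Benjamini-Hochberg adjustment over 12471 genes. A call was an adjusted p under 0.05; a 2-fold change, as in the study's methods, was a second criterion. The standard error is the size of the log2 fold change divided by the square root of F. For likeness, 0.5 CPM was added before taking logs and a mean of 1 CPM was required. The code of the fit was checked on simulated counts with few changed genes and a common dispersion. Since most genes are called in the real data, that check does not test scaling or error control here. Total counts were 19139322 to 29146812 per library. At these depths the counting error of a library, averaged over the libraries of a genotype, is 2.40% to 9.14% for the members.

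The members and lists were chosen with earlier results of these data known. Genes were named by a rule: all members, up to 3 rises and 3 falls of largest size per list, *hoxb1b*, and the 5 genes nearest to the members' mean profile. Lists of other tissues are given as counts, medians and summed levels, with named genes of the erythroid, myeloid, muscle and heat shock lists only. Some genes that the rule picks from the erythroid and muscle lists are not named in the text. The text marks names outside the rule, which were picked with their values in view. Genotype and replicate numbers came from the labels, and libraries of a genotype differed beyond counting noise in every pair. Alternatives were other scalings, filters and tools (DESeq2 1.42.0, limma 3.58.1), unrounded counts, a replicate block, glmTreat and leaving out each library; assumed spreads of 10% and 20% were added after seeing the data.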

Additional observations from a re-analysis of the deposited data

How the results depend on the processing

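The 2 rises and 4 falls among the 8 endothelial genes were called with every scaling, filter, tool and left-out library tried, with *fli1a* added to the rises under total count scaling, and 0 members passed 2-fold in any setting. With a replicate block on the labels' numbers the block called 8155 genes, 2 members higher and 4 lower, as without it. Same-numbered libraries did not deviate together (correlations of 0.076, 0.0164 and -0.000998 over 11597 genes), so the numbers were not taken as pairs. These numbers are those of the sample titles, and the deposited count columns number the mutant libraries differently. By the column numbers, mutant replicate 1 goes with wildtype replicate 2, and mutant replicate 2 with wildtype replicate 3. Those correlations were -0.062 and 0.0154, and a block on the column numbers was not fitted. *egfl7*, never called, changed sign around 0, with log2 fold changes of -0.0048 under upper quartile scaling, -0.0057 with a minimum of 10 counts per library, and -0.011 to 0.026 over the fits that left out 1 library each. Against a null of a 2-fold change, glmTreat called 502 genes in place of 1043. Spreads between pools assumed after seeing the data lowered the calls over all genes, 8254 in the main test, to 4310 at 10% and 1590 at 20%; at 20%, 0 members were called higher and 1 lower, because the assumed spread is wider than the estimated one. Depth limits the genes with few reads, such as *flt1* and the VEGF ligands.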

Other observations

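The apelin genes, which guide mesodermal and vascular cells and were singled out after their values were seen, did not move together. *apela*, the early ligand, had 49.4, 48.0 and 48.2 CPM in mutant libraries, against 33.3, 31.7 and 30.4 CPM in wildtype libraries, a log2 fold change of 0.61 (SE 0.04, edgeR adjusted p = 2.88e-13). *apln*, the ligand associated with sprouting tips, had 23.7, 23.8 and 23.2 CPM in mutant libraries, against 33.7, 31.8 and 34.1 CPM in wildtype libraries, a log2 fold change of -0.50 (SE 0.05, edgeR adjusted p = 3.68e-10). The receptor genes *aplnra* and *aplnrb* rose by 0.27 and 0.19 on the log2 scale.

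The semaphorin paralogs *sema3aa* and *sema3ab*, whose products repel vessels as well as axons, also went in opposite directions, at -0.40 and 0.59 on the log2 scale. Both scavenger receptor genes of venous endothelium, singled out after their values were seen, fell, *stab1* by 0.73 and *stab2* by 0.88 on the log2 scale. *stab2* had 29.2, 28.9 and 28.9 CPM in mutant libraries, against 56.0, 51.5 and 52.0 CPM in wildtype libraries. *ephb4a* and *nr2f2*, which are also used as venous markers and were also singled out after their values were seen, rose. *flt4*, the receptor gene used by veins among other vessels, fell, with a log2 fold change of -0.25. On the log2 scale *ephb4a* rose by 0.19 (edgeR adjusted p = 1.01e-05) and *nr2f2* by 0.09 (edgeR adjusted p = 0.00292). The paper assayed *nr2f2* as a gene of the caudal hindbrain. Levels in whole embryos do not separate veins from other tissues, so whether venous genes moved together in veins was not tested.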
